A study of Mus musculus with 6 samples.

Results

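The 8 genes described here, Gnaq, Gna11, Gna12, Gna13, Gna15, Gnai2, Gnai3 and Gnas, encode alpha subunits of heterotrimeric G proteins. They were chosen by gene symbol from a gene table of 16511 genes, and all 8 passed the filter on low counts that left 12234 genes for testing. RNA was sequenced from B lymphocytes taken from mouse spleen, in 3 libraries labelled GPR40-WT and 3 labelled GPR40-KO. GPR40 is the free fatty acid receptor encoded by Ffar1, and the comparison asks how its loss changes RNA levels in B cells. The design text writes the altered genotype as GPR40-BKO, and neither name comes with a description of the allele, the strain, the age or the sex of the mice, or of any treatment. The cells were purified by magnetic negative selection, in which other spleen cells are bound and B cells pass through untouched. The labels number the replicates without saying that each came from a separate animal. The p-values thus rest on variation among these 6 libraries alone, and that variation may be technical.

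A heterotrimeric G protein passes a signal from a receptor in the membrane to enzymes inside the cell, through an alpha subunit that binds GTP and a beta-gamma pair. Alpha subunits fall into 4 classes, of which Gq activates phospholipase C beta, Gs stimulates adenylyl cyclase, Gi inhibits it, and G12 acts on guanine nucleotide exchange factors for the GTPase RhoA. GPR40 is known to signal mainly through the Gq class. In B cells, Gi proteins act below chemokine receptors, and Gna13 is known to restrain migration and growth in germinal centres.

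The library labels went against the gene they name. No read was counted for Ffar1 under the WT label (0 counts in 3 of 3 libraries, which allows at most 0.194 to 0.201 CPM, counts scaled to library size), while libraries labelled KO held 273, 392 and 304 counts. Groups are therefore called "labelled WT" and "labelled KO" throughout, and every direction follows the label, not a genotype seen in the data. Total counts were similar in the 6 libraries, at 14907080 to 15461425. The 8 genes together took 0.165% to 0.171% of counts in the libraries labelled WT and 0.175% to 0.177% in those labelled KO. Each CPM range that allows for a count of 0 covers counting error only.

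The tail of an alpha subunit, the end of the protein, docks into the receptor. The last 33 coding bases of each gene before the stop codon are shown because they encode this contact, and are ordered by class. They are taken from GENCODE M21 transcripts on GRCm38, with the last 15 bases in capitals.
Gnaq: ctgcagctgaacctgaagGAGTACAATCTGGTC
Gna11: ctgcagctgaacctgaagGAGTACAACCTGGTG
Gna15: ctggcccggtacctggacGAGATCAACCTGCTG
Gna12: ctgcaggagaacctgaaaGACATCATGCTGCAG
Gna13: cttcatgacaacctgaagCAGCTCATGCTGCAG
Gnai2: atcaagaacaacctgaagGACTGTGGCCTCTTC
Gnai3: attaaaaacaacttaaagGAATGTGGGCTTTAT
Gnas: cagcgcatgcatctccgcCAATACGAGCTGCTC
The tail of Gnaq lay at chr19:16383359-16383391 on the plus strand, and that of Gna11 at chr10:81530798-81530830 on the minus strand. These tails differed at 2 of the 33 bases, and the whole coding sequences of Gnaq and Gna11 were 80.5% identical. Gna12 and Gna13 differed at 7 tail bases with 68.7% identity over the coding sequence, and Gnai2 and Gnai3 at 9 with 73.8%. Gna15, of the Gq class, differed from Gnaq at 12 tail bases and from Gna11 at 10. Gna12, of another class, differed from these at 11 and 10 bases, so the tails alone did not place Gna15 nearer to its class than Gna12. Over the coding sequence Gna15 was 62.4% identical to Gnaq and 67.7% to Gna11, against 57.9% and 61.5% for Gna12.

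Of the 8 genes, 1 was higher and 2 were lower in the libraries labelled KO: Gna11 rose, Gnaq and Gna12 fell, and the other 5 did not pass the test. Called here means an adjusted p under 0.05 in edgeR's quasi-likelihood test with Benjamini-Hochberg adjustment over all genes tested, a rule that called 9.37% of those genes in either direction, 4.55% as higher and 4.81% as lower. The 3 called genes make 37.5% of the 8. The median log2 fold change of the 8 genes was -0.10, against 0.01 over all genes tested. In 6 of the 8 genes the 3 CPM values of one label all lay above the 3 of the other, 3 in each direction, where 33.4% of all genes tested did so. In bulk RNA, fewer cells of a type and less RNA per cell cannot be told apart.

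**Figure D1:**
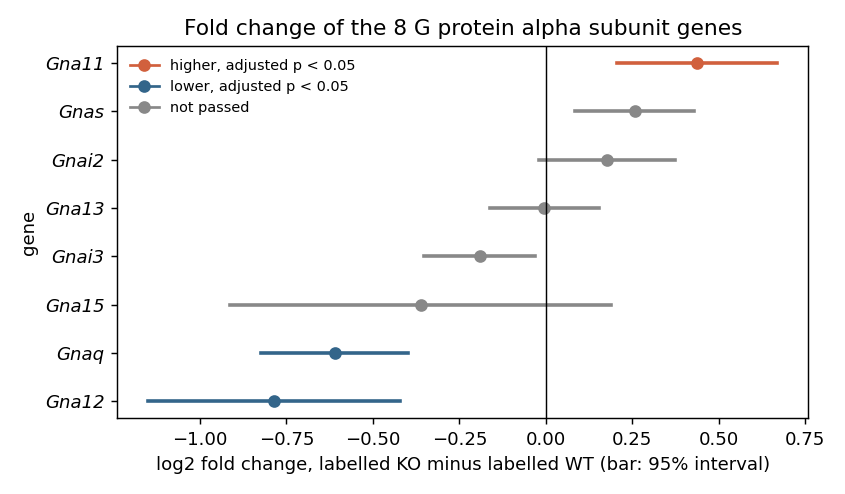
Log2 fold change of each of the 8 G protein alpha subunit genes (x axis, labelled KO minus labelled WT) with its 95% interval, from edgeR's fit over all genes tested. Gna11 lies right of 0 and Gnaq and Gna12 left of it, all 3 coloured as called, while the other 5 genes are grey.

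Gnaq, the Gq alpha subunit found in most tissues, fell by 0.61 on the log2 scale. It is encoded at chr19:16132831-16387463 on the plus strand (GRCm38). Its level was 69.3, 64.0 and 73.1 CPM in the 3 libraries labelled WT and 47.2, 42.8 and 45.2 CPM in those labelled KO, with library sizes adjusted by the TMM method of edgeR. Every library labelled KO lay below every library labelled WT. The means were 68.8 ± 4.58 and 45.1 ± 2.18 CPM (SD, n = 3 each), a level 1.53-fold lower in the libraries labelled KO (log2 fold change -0.61 ± 0.09 SE, 95% interval -0.82 to -0.40, edgeR adjusted p = 0.00781). Without KO replicate 2 the edgeR call was lost, with a log2 fold change of -0.58 and an adjusted p of 0.0564.

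Gna11, which encodes the closest relative of Gnaq and couples to the same effectors, rose by 0.44 on the log2 scale. Its gene lies at chr10:81528724-81545190 on the minus strand. The 3 libraries labelled WT held 28.7, 26.4 and 28.3 CPM, and those labelled KO 37.9, 36.8 and 38.1 CPM. The groups did not overlap, and each had a narrow spread. Means were 27.8 ± 1.20 and 37.6 ± 0.708 CPM (SD, n = 3 each), 1.35-fold higher in the libraries labelled KO (log2 fold change 0.44 ± 0.10 SE, 95% interval 0.21 to 0.67, edgeR adjusted p = 0.0362). The call lay near the threshold: edgeR's adjusted p was 0.0696 without WT replicate 1, 0.0848 without WT replicate 3, and 0.117, 0.127 and 0.0758 without KO replicates 1, 2 and 3. Across these and the fit without WT replicate 2, the log2 fold change stayed between 0.42 and 0.46.

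Because Gnaq fell and Gna11 rose, the order of this pair turned in TPM, though not in counts. The ratio of Gnaq to Gna11 in counts, which are not scaled to gene length, stayed above 1 in every library. It was 2.42, 2.42 and 2.59 in the libraries labelled WT and 1.24, 1.16 and 1.19 in those labelled KO. TPM values, which are scaled to gene length and library size, allow levels of different genes to be set side by side. The TPM of Gnaq was 17.64, 16.55 and 18.21 in the libraries labelled WT and 11.98, 11.05 and 10.88 in those labelled KO. The TPM of Gna11 was 15.47, 14.50 and 14.94 in the libraries labelled WT and 20.44, 20.16 and 19.45 in those labelled KO. Gnaq was thus the higher of the pair in each library labelled WT and the lower in each labelled KO. The TPM ratio of Gnaq to Gna11 was 1.14, 1.14 and 1.22 in the libraries labelled WT and 0.586, 0.548 and 0.559 in those labelled KO. An exact two-sided permutation test of the mean ratio, 1.17 ± 0.0451 against 0.565 ± 0.0195 (SD, n = 3 each), gave p = 0.1, the smallest that 3 against 3 allows. The summed TPM of Gnaq and Gna11 was 33.11, 31.05 and 33.15 in the libraries labelled WT and 32.42, 31.21 and 30.33 in those labelled KO, and these ranges overlapped. The difference of the mean sums was -1.12 TPM, with p = 0.3 in the exact permutation test. These ratios and sums were chosen after the values were seen, among 12 such quantities, and no adjusted p over the 12 was under 0.171.

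**Figure D2:**
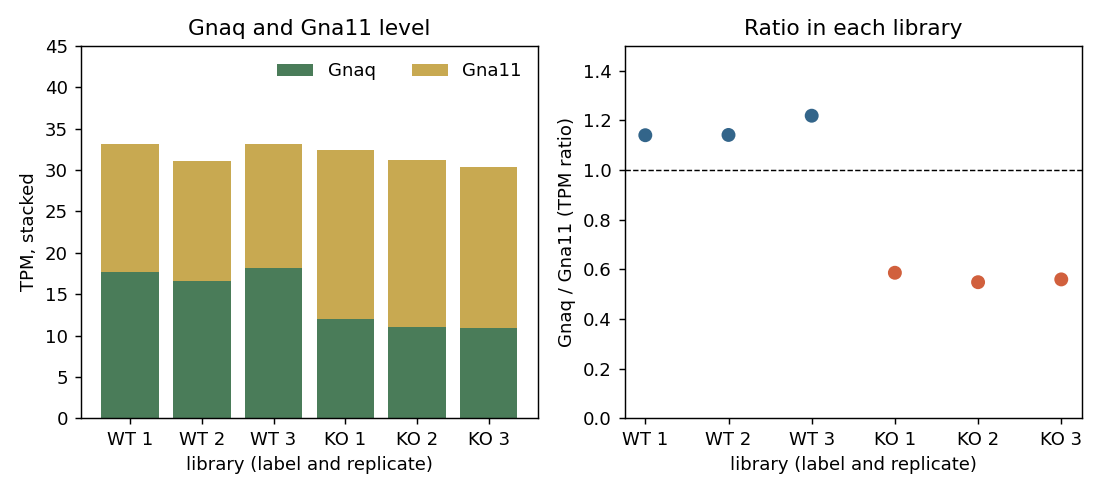
Left, TPM of Gnaq (green) and Gna11 (yellow) stacked for each of the 6 libraries. Right, the TPM ratio of Gnaq to Gna11 in each library, with a dashed line at 1: the 3 libraries labelled WT lie above the line, at 1.14 to 1.22, and the 3 labelled KO lie below it, at 0.548 to 0.586.

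Gna15, a member of the Gq class expressed mainly in blood cells and known for coupling to many kinds of receptor, did not pass the test. It is the neighbour of Gna11 on chromosome 10, at chr10:81502306-81524225 on the minus strand, with 4498 bases between the genes. Its level was 16.2, 12.1 and 21.9 CPM in the libraries labelled WT and 11.99, 11.4 and 15.7 CPM in those labelled KO. The groups overlapped, and replicate 3 was the highest in each. The log2 fold change was -0.36 ± 0.24 SE with a 95% interval from -0.91 to 0.19 (edgeR adjusted p = 0.363), and it ranged from -0.53 to -0.11 when 1 library was left out. The remaining gene of the class, Gna14, had at most 4 counts in any library and was not tested.

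The promoters of Gnaq and Gna11 are shown because this pair moved in opposite directions, and that of Gna12 because it fell with Gnaq. Each window runs from 250 bases before to 50 bases after the gene's start, from RefSeq on GRCm38.p6. For Gnaq the RefSeq start differs from the GENCODE gene start given above, and its window ends before that GENCODE start. Capitals mark GC boxes, the letters GGGCGG on either strand, with overlapping matches counted separately.
Gnaq: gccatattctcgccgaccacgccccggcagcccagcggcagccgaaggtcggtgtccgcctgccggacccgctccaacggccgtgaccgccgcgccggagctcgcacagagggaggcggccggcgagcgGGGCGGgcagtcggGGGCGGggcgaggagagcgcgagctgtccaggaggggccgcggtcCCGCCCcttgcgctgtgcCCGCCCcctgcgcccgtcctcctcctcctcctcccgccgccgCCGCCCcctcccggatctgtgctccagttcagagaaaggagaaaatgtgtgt
Gna11: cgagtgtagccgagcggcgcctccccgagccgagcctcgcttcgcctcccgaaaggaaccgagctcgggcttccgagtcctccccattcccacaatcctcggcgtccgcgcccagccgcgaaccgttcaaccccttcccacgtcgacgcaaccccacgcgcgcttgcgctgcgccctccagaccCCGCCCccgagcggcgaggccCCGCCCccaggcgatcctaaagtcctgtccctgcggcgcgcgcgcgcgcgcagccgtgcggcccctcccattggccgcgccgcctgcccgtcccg
Gna12: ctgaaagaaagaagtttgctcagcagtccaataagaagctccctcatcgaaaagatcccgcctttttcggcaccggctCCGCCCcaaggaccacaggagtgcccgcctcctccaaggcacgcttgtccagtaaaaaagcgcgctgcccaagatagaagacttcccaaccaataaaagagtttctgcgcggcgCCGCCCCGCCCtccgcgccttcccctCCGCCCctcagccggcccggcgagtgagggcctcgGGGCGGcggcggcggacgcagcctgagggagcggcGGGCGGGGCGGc
The windows lay at chr19:16132434-16132733 on the plus strand for Gnaq, at chr10:81545113-81545412 on the minus strand for Gna11, and at chr5:140830382-140830681 on the minus strand for Gna12. They held 5 GC boxes in Gnaq, 2 in Gna11 and 7 in Gna12, a motif found in 35.66% of 32851 promoter windows of this length. The letters CCAAT, searched on both strands, occurred once in the Gna11 window and at 2 positions in that of Gna12, against 37.41% of all windows with at least 1. The letters TGACGTCA of the cyclic AMP response element occurred in none of the 3 windows, and in 1.79% of all windows. GC content was 75.0% for Gnaq and for Gna11, and 65.67% for Gna12, above the median of 52.67% over all windows. The Gna15 window had a GC content of 62.33% and no GC box. A match is a description of the sequence and not a binding site.

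Gna12 fell by 0.79 on the log2 scale, the larger of the drops among the called genes, while Gna13 of the same class was level. Both proteins act through RhoA on the cytoskeleton. Gna12, at chr5:140758408-140830431 on the minus strand, measured 42.2, 41.3 and 59.97 CPM in the libraries labelled WT and 29.0, 27.7 and 26.5 CPM in those labelled KO. The groups did not overlap, and WT replicate 3 stood above the rest of its group. The means were 47.8 ± 10.54 and 27.7 ± 1.22 CPM (SD, n = 3 each), 1.72-fold lower in the libraries labelled KO (log2 fold change -0.79 ± 0.16 SE, 95% interval -1.15 to -0.42, edgeR adjusted p = 0.0234). Without WT replicate 3 the log2 fold change was -0.58 and the call was kept. The edgeR call was lost without KO replicates 1, 2 or 3, with adjusted p of 0.0813, 0.109 and 0.0708. Gna12 shares 456 of its 3416 exon bases with Amz1, a gene on the opposite strand that is named here after its values were seen. The labels state no step that keeps the strand, so reads from the shared stretch cannot be assigned. Amz1 had 40.1, 20.1 and 57.6 CPM in the libraries labelled WT and 23.8, 13.1 and 23.3 CPM in those labelled KO, with overlapping groups and a log2 fold change of -0.97 ± 0.43 SE (edgeR adjusted p = 0.215). DESeq2, and edgeR with the replicate number as a block, called Amz1 as lower, and limma on log2 TPM did not. How far Amz1 reads enter the Gna12 value was not tested.

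Gna13, at chr11:109362831-109401369 on the plus strand, had the smallest difference of the 8 genes. Its counts were 3651, 3491 and 3555 in the libraries labelled WT and 3489, 3459 and 3476 in those labelled KO. After scaling to library size the groups overlapped fully, at 233 ± 3.64 and 233 ± 2.40 CPM (SD, n = 3 each). The log2 fold change was -0.0049 ± 0.07 SE, and its 95% interval of -0.16 to 0.15 bounds the difference that these libraries could hide (edgeR adjusted p = 0.971). The TPM ratio of Gna12 to Gna13 was 0.579, 0.586 and 0.863 in the libraries labelled WT and 0.416, 0.390 and 0.378 in those labelled KO, with no overlap (exact permutation p = 0.1, the smallest possible).

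The Gi class was represented by Gnai2 and Gnai3, and neither passed the test. Gnai2, the main Gi alpha subunit of lymphocytes, lies at chr9:107614125-107635367 on the minus strand. It measured 591, 515 and 568 CPM in the libraries labelled WT and 637, 655 and 599 CPM in those labelled KO, each of the latter above each of the former. Its log2 fold change was 0.18 ± 0.09 SE, with a 95% interval from -0.02 to 0.37 (edgeR adjusted p = 0.221). Gnai3, at chr3:108107280-108146146 on the minus strand, encodes a subunit that overlaps in function with Gnai2. It measured 223, 216 and 211 CPM in the libraries labelled WT and 186, 192 and 192 CPM in those labelled KO, each of the latter below each of the former. Its log2 fold change was -0.19 ± 0.07 SE, with a 95% interval from -0.35 to -0.03 (edgeR adjusted p = 0.119). The TPM ratio of Gnai3 to Gnai2 was 0.234, 0.259 and 0.231 in the libraries labelled WT and 0.181, 0.182 and 0.200 in those labelled KO, again without overlap (exact permutation p = 0.1, the smallest possible).

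Gnas, which encodes the stimulatory alpha subunit Gs, lay just outside the threshold. The gene lies at chr2:174284320-174346744 on the plus strand. It measured 483, 515 and 509 CPM in the libraries labelled WT and 586, 599 and 616 CPM in those labelled KO. All libraries labelled KO lay above all labelled WT, with means of 503 ± 17.2 and 600 ± 15.3 CPM (SD, n = 3 each), a ratio of 1.19. The log2 fold change was 0.26 ± 0.07 SE, with a 95% interval from 0.08 to 0.43 (edgeR adjusted p = 0.0673). With the replicate number as a block the log2 fold change was again 0.26 and the adjusted p 0.0418. DESeq2 gave an adjusted p of 0.00636, so both settings placed Gnas among the higher genes. Gnas did not pass with limma on log2 TPM, without the filter on low counts or with DESeq2 size factors in edgeR. Nor did it pass with any 1 library left out (edgeR adjusted p 0.0542 to 0.234).

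Levels of the 8 genes spanned a wide range. In the libraries labelled WT the mean TPM was 579 for Gnas, 504 for Gnai2, 121 for Gnai3, 74.6 for Gna13, 50.2 for Gna12, 17.5 for Gnaq, 15.8 for Gna15 and 14.97 for Gna11. The ranges of Gnaq and Gna15 overlapped there, as did those of Gna15 and Gna11, and the other neighbours in this order did not overlap. In the libraries labelled KO the mean TPM was 683 for Gnas, 561 for Gnai2, 105 for Gnai3, 73.0 for Gna13, 28.8 for Gna12, 20.0 for Gna11, 12.1 for Gna15 and 11.3 for Gnaq. Only Gna15 and Gnaq overlapped as neighbours in that order. Gnas lay above 98.8% of the genes in the table in the libraries labelled WT and above 99.0% in those labelled KO. Gnaq lay above 58.7% and 52.5%, and Gna11 above 55.8% and 62.3%.

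**Figure D3:**
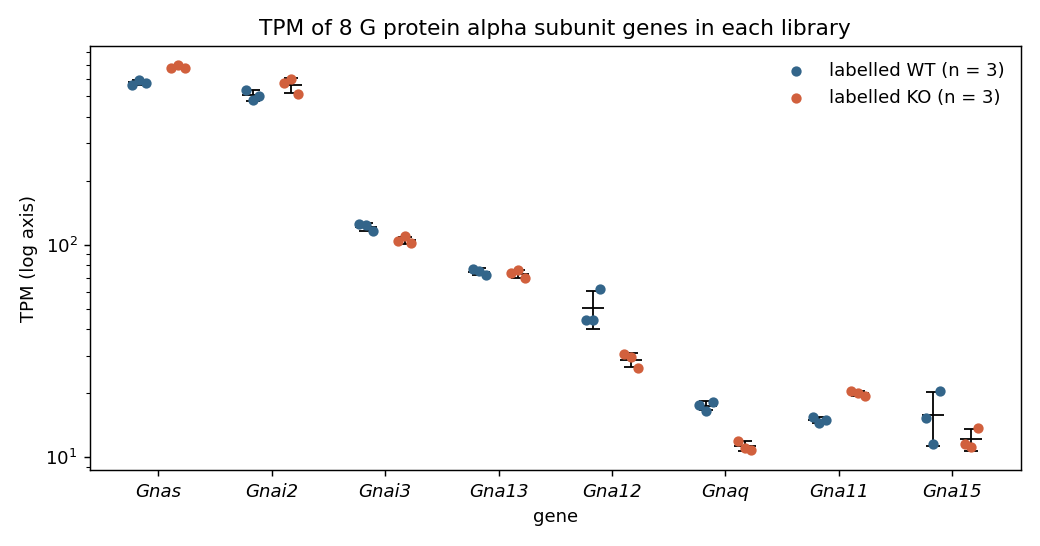
TPM (y axis, log scale) of the 8 genes in each library, blue for the 3 labelled WT and orange for the 3 labelled KO, with bars for the mean and SD. Gnas and Gnai2 lie highest, and the Gnaq and Gna11 points change places between the labels.

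As shares of the summed TPM of the 8 genes, Gnas took 42.1% ± 1.77 in the libraries labelled WT and 45.7% ± 1.34 in those labelled KO (SD, n = 3 each). Gnai2 took 36.6% ± 1.70 and 37.5% ± 1.55, with overlapping groups. The share of Gna12 was 3.64% ± 0.727 and 1.93% ± 0.0869, and that of Gnai3 8.80% ± 0.374 and 7.02% ± 0.111. Gnaq held 1.27% ± 0.04996 and 0.757% ± 0.0432, and Gna11 1.09% ± 0.0228 and 1.34% ± 0.0380. Shares of Gnas and Gna11 were above, and those of Gnaq, Gna12, Gna13 and Gnai3 below, in every library labelled KO against every library labelled WT. Each of these 6 gave an exact permutation p of 0.1, the smallest possible, or 0.133 adjusted over the 8 shares. A share falls when another gene takes more of the sum: Gna13, level in CPM, went from 5.42% to 4.89%.

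Transcripts could be examined for the genes with more than 1 in the transcript table, chiefly Gnas with 11. Its coding forms are known to differ by a short exon, which gives the long and short Gs proteins. The long transcript NM_201616 holds this exon of 45 bases at chr2:174336747-174336791 on the plus strand of GRCm38, here entirely in lower case.
Gnas exon: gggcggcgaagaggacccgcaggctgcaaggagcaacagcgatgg
The transcript NM_001077510 lacks it, and starts its next coding exon 3 bases earlier. NM_001077510 took 37.7%, 41.3% and 40.7% of the TPM of Gnas in the libraries labelled WT and 39.5%, 39.7% and 43.6% in those labelled KO. NM_201616 took 16.6%, 16.5% and 14.0% in the libraries labelled WT and 15.6%, 15.4% and 13.5% in those labelled KO. Groups overlapped for both, with exact permutation p of 0.6 and 0.5. The other Gnas transcripts with mean shares of at least 5% were NM_001364030 (16.1% ± 3.55 and 14.9% ± 1.94), XM_030247569 (15.8% ± 6.85 and 17.4% ± 3.24) and XM_006498777 (10.3% ± 2.24 and 9.06% ± 1.41), labelled WT first, SD, n = 3 each. Gnai2 came mostly from NM_008138, at 83.4% ± 2.62 and 86.3% ± 1.74 (exact permutation p = 0.3), and Gna13 from NM_010303, at 87.0% ± 2.17 and 87.6% ± 1.97 (exact permutation p = 0.9). Gna15 came mostly from NM_010304, at 68.0% ± 3.36 and 70.1% ± 13.2, and all shares of at least 5% overlapped between the labels.

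No transcript of the 8 genes passed edgeR's test in the transcript table, where 20 of their 22 transcripts were tested and 0.154% of all 31150 tested transcripts were called. Of the 20, 5 had an unadjusted p under 0.05, a share that was not counted over all transcripts. DESeq2 called 4 of the 20, the single transcripts of Gnaq, Gna11, Gna12 and Gnai3, and limma on log2 TPM called 0. Of all 31150 tested transcripts DESeq2 called 2632 and limma 111. DESeq2's log2 fold changes were -0.63 for the Gnaq transcript, 0.42 for that of Gna11, -0.81 for that of Gna12 and -0.21 for that of Gnai3. Of the transcript counts of these genes 66.7% were not whole numbers, since reads shared by transcripts had been divided among them, while all gene counts of the 8 were whole.

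Other alpha subunit genes were close to absent. Gnal, a Gs-class gene of olfactory neurons and brain, was the 1 tested of 8, with counts of 48, 55 and 60 in the libraries labelled WT and 64, 88 and 81 in those labelled KO. The libraries labelled KO lay above, with a log2 fold change of 0.54 ± 0.29 SE that did not pass (edgeR adjusted p = 0.257, and 0 of 1 at an unadjusted p under 0.05, by DESeq2 and by limma on log2 TPM). Gnaz, a Gi-class gene of platelets and neurons, had 8, 1 and 26 counts in the libraries labelled WT and 4, 2 and 3 in those labelled KO. Gnai1 had 0, 0 and 2 counts against 3, 0 and 11, and Gnao1, the Go gene of neurons, 0, 5 and 0 against 0, 0 and 1. The genes Gna14, Gnat1, Gnat2 and Gnat3, the last 3 encoding transducins and gustducin of sensory cells, had at most 4 counts in any library. No fold is given for these genes, which were not tested.

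Genes that followed the called members most closely over the 6 libraries were ranked by Pearson's r of log2 CPM, as a description that includes the difference between the labels. For Gnaq these were Rasgef1b (r = 0.997), Aoah (0.996) and the G beta gene Gnb1 (0.995). Gna11 was followed by Tctn1 (r = 0.998), Tram1 (0.997) and Lrrc56 (0.996). Gna12 was followed by Pcyox1 (r = 0.995), Pgm2l1 (0.991) and Agpat5 (0.988).

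Among 53 tested genes that partner with alpha subunits or act below them, 4 were higher and 5 lower in the libraries labelled KO by edgeR's test. This is 16.98%, beside the 9.37% of all genes tested. With the replicate number as a block these counts were 8 and 10, and with DESeq2 7 and 10. Both settings also called more of all genes tested, 2535 with the block and 2246 with DESeq2, beside 1146 in the main fit. The 9.37% is thus no background for their counts. The median log2 fold change of the 53 genes was -0.05.

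The beta and gamma subunits that pair with alpha subunits moved in both directions. Of 4 tested G beta genes, 2 fell. Gnb1, the widely expressed beta subunit, measured 325, 308 and 349 CPM in the libraries labelled WT and 255, 228 and 239 CPM in those labelled KO, without overlap (log2 fold change -0.45 ± 0.08 SE, edgeR adjusted p = 0.0187). Gnb4 measured 27.4, 17.2 and 21.1 CPM in the libraries labelled WT and 13.7, 8.52 and 12.4 CPM in those labelled KO, also without overlap (log2 fold change -0.93 ± 0.23 SE, edgeR adjusted p = 0.0456). Gnb2 and Gnb5 did not pass, at -0.06 and 1.46 on the log2 scale. Of 8 tested G gamma genes, 1 rose: Gng2, the partner of Gnb1 in many cells, measured 85.6, 82.7 and 88.8 CPM in the libraries labelled WT and 115, 128 and 106 CPM in those labelled KO (log2 fold change 0.44 ± 0.09 SE, edgeR adjusted p = 0.0233). Gng5, Gng12 and Gng4 had log2 fold changes of -0.32, -0.92 and -0.87 and did not pass (edgeR adjusted p = 0.09999, 0.162 and 0.231). Gng12 passed with the block (adjusted p = 0.00202), but not with any 1 library left out (edgeR adjusted p 0.0632 to 0.365). The edgeR call of Gnb1 was lost without WT replicate 3 or KO replicates 1, 2 or 3 (adjusted p up to 0.103), that of Gnb4 without any library other than WT replicate 2 (up to 0.145), and that of Gng2 without WT replicate 3 or KO replicates 1 or 2 (up to 0.115).

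Effectors of the Gq class moved both ways as well, with 2 of 10 tested genes higher and 1 lower. Plcb2, the phospholipase C beta of blood cells, measured 111, 102 and 92.7 CPM in the libraries labelled WT and 144, 155 and 143 CPM in those labelled KO, with no overlap. Its log2 fold change was 0.53 ± 0.09 SE (edgeR adjusted p = 0.0119, or 0.0656 without KO replicate 2). Itpr3, a receptor for the inositol trisphosphate that phospholipase C makes, measured 184, 208 and 200 CPM in the libraries labelled WT and 303, 342 and 274 CPM in those labelled KO. Its log2 fold change was 0.63 ± 0.10 SE (edgeR adjusted p = 0.00991, or 0.0542 without KO replicate 1 and 0.0569 without KO replicate 2). Trio, an exchange factor for small GTPases that Gq activates, fell. It measured 226, 273 and 249 CPM in the libraries labelled WT and 158, 132 and 137 CPM in those labelled KO (log2 fold change -0.81 ± 0.10 SE, edgeR adjusted p = 0.00372), and was called without each library in turn. Plcb4 had a log2 fold change of -1.45 ± 0.49 SE and did not pass (edgeR adjusted p = 0.101).

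Neither the G12 and G13 effectors nor the adenylyl cyclases and cyclic AMP targets held a gene called by edgeR. Of 6 tested G12 and G13 effectors, 2 had an unadjusted p under 0.05, DESeq2 called 1 as higher and limma on log2 TPM called 0. Arhgef1, the exchange factor for RhoA that Gna13 activates in lymphocytes, measured 731, 747 and 650 CPM in the libraries labelled WT and 844, 958 and 882 CPM in those labelled KO, without overlap. Its log2 fold change was 0.33 ± 0.09 SE (edgeR adjusted p = 0.0568, 0.0210 with the block and 0.0382 without WT replicate 2). With any other library left out Arhgef1 did not pass (edgeR adjusted p up to 0.230). The kinase gene Rock2 had a log2 fold change of -0.17, and the exchange factor genes Arhgef11 and Arhgef12 had 0.08 and -0.18, none past the test. Of 14 tested adenylyl cyclases and cyclic AMP targets, 6 had an unadjusted p under 0.05, DESeq2 called 1 as higher and 3 as lower, the block 2 and 3, and limma on log2 TPM 0. The share of all genes tested with an unadjusted p under 0.05 was not counted. Neither this 6 nor the 2 above thus has a background. Adcy3, an adenylyl cyclase, measured 41.6, 28.0 and 50.8 CPM in the libraries labelled WT and 24.2, 17.7 and 22.8 CPM in those labelled KO (log2 fold change -0.89 ± 0.23 SE, edgeR adjusted p = 0.0518). Rapgef4, an exchange factor opened by cyclic AMP, had a log2 fold change of 0.60 ± 0.17 SE (edgeR adjusted p = 0.0647). Prkar2a, a regulatory subunit of protein kinase A, and the adenylyl cyclase gene Adcy6 had -0.69 and -0.996 (edgeR adjusted p = 0.0971 and 0.115). These last 4 genes passed with the block, at adjusted p of 0.00213, 0.00525, 0.00985 and 0.0259, and also without WT replicate 2, at 0.00590, 0.0242, 0.0305 and 0.00187. Over all genes tested these 2 settings called 2535 and 2030, beside 1146 in the main fit. None of the 4 passed edgeR's test with any other library left out, at adjusted p up to 0.177, 0.242, 0.277 and 0.290.

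The remaining lists held the PI3 kinase that beta-gamma pairs activate and the proteins that fold or hold alpha subunits. Of the 3 PI3 kinase genes, the catalytic subunit gene Pik3cg fell, from 156, 166 and 156 CPM in the libraries labelled WT to 131, 128 and 122 CPM in those labelled KO (log2 fold change -0.33 ± 0.07 SE, edgeR adjusted p = 0.0304). Its regulatory partners Pik3r5 and Pik3r6 had log2 fold changes of -0.64 and -0.33 and did not pass (edgeR adjusted p = 0.116 and 0.359), though Pik3r5 passed with the block (0.0178) and without WT replicate 2 (0.0168). With any other library left out Pik3r5 did not pass (edgeR adjusted p up to 0.274). Of 8 tested chaperone and modulator genes, 1 rose and 1 fell. Rgs14, which speeds GTP hydrolysis by Gi alpha subunits and also binds their GDP form, rose from 43.4, 34.6 and 32.8 CPM to 57.3, 68.9 and 56.3 CPM (log2 fold change 0.72 ± 0.14 SE, edgeR adjusted p = 0.0200). Ccdc88a, which encodes girdin, a protein that activates Gi alpha subunits without a receptor, fell from 63.4, 37.5 and 59.6 CPM to 29.7, 24.7 and 29.5 CPM (log2 fold change -0.93 ± 0.20 SE, edgeR adjusted p = 0.0313). Gpsm2 and Gpsm3, which encode proteins that hold Gi alpha subunits in the GDP form, had log2 fold changes of -0.92 and -0.11 and did not pass. The edgeR calls of Pik3cg and Ccdc88a were lost without any library other than WT replicate 2 (adjusted p up to 0.124 and 0.126), and that of Rgs14 without WT replicate 3 or KO replicates 1 or 2 (up to 0.0973).

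**Figure D4:**
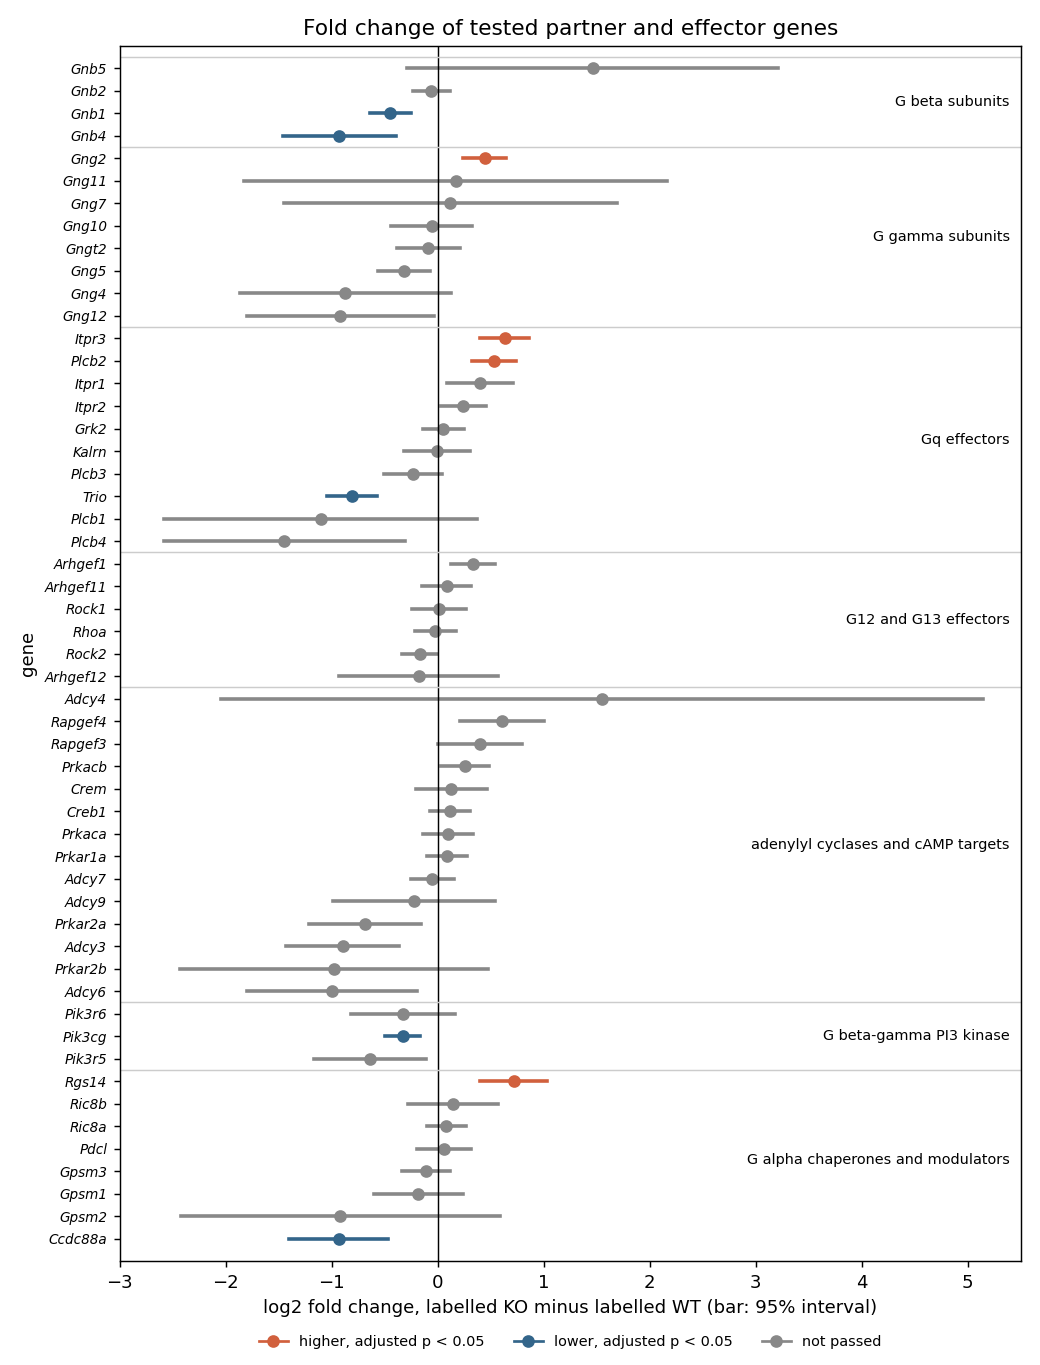
Log2 fold change (x axis, labelled KO minus labelled WT) with its 95% interval for the 53 tested partner and effector genes, grouped by list. The 4 genes called higher are orange, the 5 called lower are blue and the 44 that did not pass are grey.

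Markers of B cells and of other spleen cells differed between the labels. Ms4a1, which encodes the B cell surface protein CD20, rose from 410, 617 and 454 CPM in the libraries labelled WT to 1062, 1210 and 1223 CPM in those labelled KO (log2 fold change 1.24 ± 0.16 SE, edgeR adjusted p = 0.00396). Cd22, an inhibitory receptor of B cells, rose from 636, 891 and 746 CPM to 1660, 1826 and 1550 CPM (log2 fold change 1.15 ± 0.13 SE, edgeR adjusted p = 0.00244). Cd79a, Cd79b and Pax5 had log2 fold changes of 0.35, 0.25 and 0.27 and did not pass (edgeR adjusted p = 0.190, 0.305 and 0.245). The sum of 10 neutrophil markers was 5431, 1681 and 542 CPM in the libraries labelled WT and 205, 155 and 87.1 CPM in those labelled KO. Of the 10, edgeR called 2 as lower, DESeq2 10 and the block 5, all 10 lay lower without overlap, and their median log2 fold change was -4.26. Of all genes tested edgeR called 4.81% as lower, and 33.4% had no overlap in either direction. DESeq2 called 2246 and the block 2535 of all 12234 genes tested in either direction, beside 1146 in the main fit. The 4.81% is thus no background for the DESeq2 and block counts of this and the other marker lists. The sum of 10 monocyte and macrophage markers was 4628, 2066 and 5043 CPM against 1628, 887 and 1274 CPM. Of these 10, edgeR called 2 as lower, DESeq2 5 and the block 9, and their median log2 fold change was -1.43. Sums for 9 T cell markers ranged from 111 to 546 CPM against 77.9 to 134 CPM, those for 6 platelet markers from 75.9 to 132 CPM against 26.6 to 67.4 CPM, and those for 6 erythroid markers from 653 to 8011 CPM against 324 to 1513 CPM, labelled WT first. Sums for 5 dendritic cell markers ranged from 85.0 to 119 CPM against 31.6 to 51.3 CPM, those for 5 NK cell markers from 4.95 to 8.61 CPM against 2.61 to 3.33 CPM, and those for 5 stromal markers from 149 to 182 CPM against 235 to 624 CPM. The genes called lower by edgeR, DESeq2 and the block were 1, 4 and 3 of 9 T cell markers, 2, 4 and 4 of 4 tested dendritic cell markers, and 1, 1 and 3 of 4 tested platelet markers. For the 3 tested NK cell markers these counts were 0, 1 and 1, with 1 at an unadjusted p under 0.05 and 1 called by limma on log2 TPM. For the 6 erythroid markers the counts were 0 by each of these, also at an unadjusted p under 0.05. The share of all genes tested under this unadjusted p was not counted. Of 4 tested stromal markers, 1 was called higher by edgeR, DESeq2 and the block, and the gene edgeR called was Pecam1. It measured 147, 179 and 144 CPM in the libraries labelled WT and 233, 269 and 201 CPM in those labelled KO. Outside KO replicate 3 Pecam1 made up most of the stromal sum. Col3a1 measured 0.906, 0.591 and 0.726 CPM in the libraries labelled WT and 0.202, 0.466 and 225 CPM in those labelled KO. Col1a1 and Col1a2 were likewise high in KO replicate 3 alone, at 76.4 and 115 CPM. The groups of Cdh5 overlapped. Of the markers of other cells only the NK cell gene Gzma was at 0 in all libraries of a label, those labelled KO. Gna12 and Gna15 were highest in WT replicate 3, the library with the highest macrophage and erythroid sums. Gna12 measured 42.2 and 41.3 CPM in WT replicates 1 and 2, where the macrophage sum was 4628 and 2066 CPM. Among the libraries labelled KO the macrophage sum was highest in replicate 1 and lowest in replicate 2. There Gna12 was highest in replicate 1 and lowest in replicate 3, and Gna15 highest in replicate 3 and lowest in replicate 2. Gnaq was highest in WT replicate 3 and KO replicate 1 and lowest in replicate 2 of each label. The monocyte and macrophage sum had the same order. The neutrophil sum was highest in replicate 1 and lowest in replicate 3 of both labels. These orders of 3 libraries were set side by side after the values were seen, and say nothing of the source of the reads. The part of other cells in the values of the 8 genes was not tested.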

How the data were processed

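RNA of 6 libraries was sequenced in paired ends after oligo(dT) capture and random priming, per the labels' protocols, which state no step that keeps the strand. Per the file headers, the authors deposited estimated counts, not scaled to depth, for genes and for transcripts. TPM and FPKM, scaled by the authors to length and depth, stood beside them. FPKM was read but gives no printed value. Software named in the submitters' processing notes, without roles, was RSEM 1.3.1, HISAT2 2.0.4 and Bowtie2 2.2.5, with the mm10 build. The tables also held 12 per-library columns that were not used here. Of the gene counts 5.87% were not whole, and all were rounded. The gene table and the transcript table were each tested with edgeR 4.0.16 in R 4.3.3: filterByExpr by label, TMM scaling, a robust quasi-likelihood fit without covariates, and Benjamini-Hochberg adjustment over all features tested, with a threshold of 0.05. CPM was computed from these counts and TMM library sizes. Alternatives were DESeq2 1.42.0, DESeq2 size factors in edgeR, no filter, limma 3.58.1 on log2(TPM + 0.5), the replicate number as a block, and leaving out libraries. Scripts were tested on simulated data.

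Replicates differed beyond counting noise (chi-square per degree of freedom 11.8 to 45.8), so each was kept as its own sample. Deviations from the group means correlated within each shared replicate number (r = 0.156, 0.408 and 0.197 over genes). This sign of a pairing comes from the data, as the labels do not say what a number marks. The main edgeR fit and the printed permutation tests did not use the pairing, which entered only through the replicate block. Sign flips of 3 pairs, which would use it, could give no p under 0.25.

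The genes named are the 8 members, the other alpha subunit genes, up to 4 genes of each partner list with the smallest p, Ffar1, the 3 genes most like each called member, and transcripts with a mean share of at least 5%. Outside this rule, Amz1, Gzma, Pecam1, Col1a1, Col1a2, Col3a1 and Cdh5 were named after their values were seen, and B cell markers come from the marker list. Members and lists were chosen with earlier results of these data known. Coding sequences and gene positions come from GENCODE M21 and promoters from RefSeq. A count of 0 allows up to 3 counts; intervals of counts cover counting error only. Share and ratio tests were exact, two-sided permutations of 3 against 3. Some values of the marker lists are not reported here.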

Additional observations from a re-analysis of the deposited data

How the results depend on the processing

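edgeR called 1146 genes, against 2246 by DESeq2, 2535 with the replicate block, 567 with WT replicate 1 and KO replicate 3 both left out, and 264 to 2030 with 1 library left out. Of these 1146, 1138 were called with the block and 1146 by DESeq2. Of the 8 genes, 1 was called higher, against 2 by DESeq2, 2 with the block, 0 by limma on log2 TPM, 0 with both libraries left out and 0 to 1 with 1 left out; the 2 called lower became 1 and 0 to 2 in the last settings. The block changed no call of a member other than Gnas (log2 fold change 0.26, or 0.25 by DESeq2). Gnaq ranged from -0.65 to -0.56 with 1 library left out. Gna11 was 0.41 with limma and 0.45 with both left out (range 0.42 to 0.46), and Gna12 was -0.84 with both left out (range -0.87 to -0.58). Gna13 stayed near 0 on either side, at 0.00098 with both left out (range -0.0084 to 0.0061). The partner genes called higher were 7 by DESeq2, 8 with the block, 2 with limma and 0 to 6 with 1 left out, and those lower were 10, 10, 3 and 1 to 9, with 1 when both were left out. Transcript calls varied widely: 48 by edgeR, 2632 by DESeq2, 109 without the filter, 0 with the block, 111 with limma, 0 with both left out and 1 to 5 with 1 left out; for the 8 genes DESeq2 called 1 higher and 3 lower. With estimated counts in place of TPM, which weights longer genes more, the share differences were -1.58 points for Gnaq, 0.46 for Gna11, -0.87 for Gna13 and -2.29 for Gnai3, each in its first direction. Changes of sign without a call were seen for Arhgef12 (-0.43 to 0.20 with 1 left out), NM_001364030 (-0.025 with both left out, -0.021 to 0.32 with 1), XM_006498777 (-0.055, -0.13 to 0.20), NM_010303 (-0.035 to 0.0012), XM_006513233 (-7.70 to 1.63), NM_001359034 (0.020, -0.25 to 0.029) and XM_006511637 (0.080, -0.21 to 0.034). Fits with fewer libraries have fewer degrees of freedom; the causes of other shifts were not tested.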
